A study of Mus musculus with 6 samples.

Results

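The genes described here encode the TGF-β ligands *Tgfb1*, *Tgfb2* and *Tgfb3*, the activin subunit *Inhba*, the receptors *Tgfbr1*, *Tgfbr2* and *Tgfbr3*, and the latency proteins *Ltbp1*, *Ltbp2* and *Ltbp3*. The set is fixed by gene name, and all 10 were found by Ensembl identifier among the 47729 genes of the deposited table. Transcripts of the upper end of the tibia were sequenced in 3 Control and 3 LS1 mice at an age of 14 days. LS1 belongs to the Longshanks mice, selected for a long tibia in proportion to body mass, and the labels give Control as ICR, a random-bred line kept in parallel. All mice came from generation F13 and from separate families, and both proximal epiphyses of 1 mouse made 1 library. The dissected piece held growth plate, metaphysis, articular cartilage and the secondary ossification centre with its marrow. Because only 1 selected line was sequenced, a difference produced by selection and one produced by drift between the lines cannot be told apart. The sex of the mice is not given in the sources used here.

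TGF-β is secreted as an inactive dimer held by its own propeptide, and latent TGF-β binding proteins (LTBPs) tie that complex to fibrillin and fibronectin in the matrix until integrins or proteases release it. Active ligand binds the type II receptor TGFBR2, which recruits and phosphorylates the type I receptor TGFBR1, and TGFBR1 then phosphorylates SMAD2 and SMAD3. In cartilage this pathway is known to restrain chondrocyte hypertrophy and to maintain articular cartilage, and in bone TGF-β stored in the matrix is released when osteoclasts resorb it.

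The libraries held 68803249 to 76581954 reads in Control and 82227711 to 88745366 in LS1, so each LS1 library was the deeper. The deposited value is a read count divided by 1 size factor per library, here called a normalized read count, and 1 read was worth 0.870 to 1.11 of it. LS1 replicate 3 stood apart from the other LS1 libraries. On the first principal component of all tested genes it lay at -4.29, against 43.7 and 50.1 for the other LS1 libraries and -41.5 to -22.1 for Control. Some results are therefore also given without it, but not all. Cartilage was well represented, with all 14 chondrocyte markers past the filter of a mean of 20 reads. They summed to normalized read counts between 2626500 and 2986400 in Control and between 3338100 and 3859100 in LS1, and 12 of the 14 had a positive log2 fold change.

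No ligand, receptor or latency gene differed between LS1 and Control after adjustment over all genes tested. All 10 passed the filter of 20 reads, the lowest being *Inhba* with at least 234 reads in every library. The test was limma on log2(normalized read count + 1), with Benjamini-Hochberg adjustment over 19308 genes, and it called 0 of the 10 at an adjusted p under 0.05, while 0.0725% of all genes tested were called. At an unadjusted p under 0.05 it called 1 of the 10, *Tgfb2*, against 12.9% of all genes. DESeq2 on the recovered reads likewise called 0 of the 10 after adjustment, with 2.51% of all genes called. The log2 fold change, LS1 minus Control, was positive for 7 genes and negative for 3. Its median was 0.05, and the median size without sign was 0.12, against 0.21 over all genes tested. The median standard error of the 10 was 0.14, against 0.21 over all genes. In bulk tissue a change in the number of cells that use a gene and a change in its RNA per cell cannot be told apart, and this holds for each value below.

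**Figure D1:**
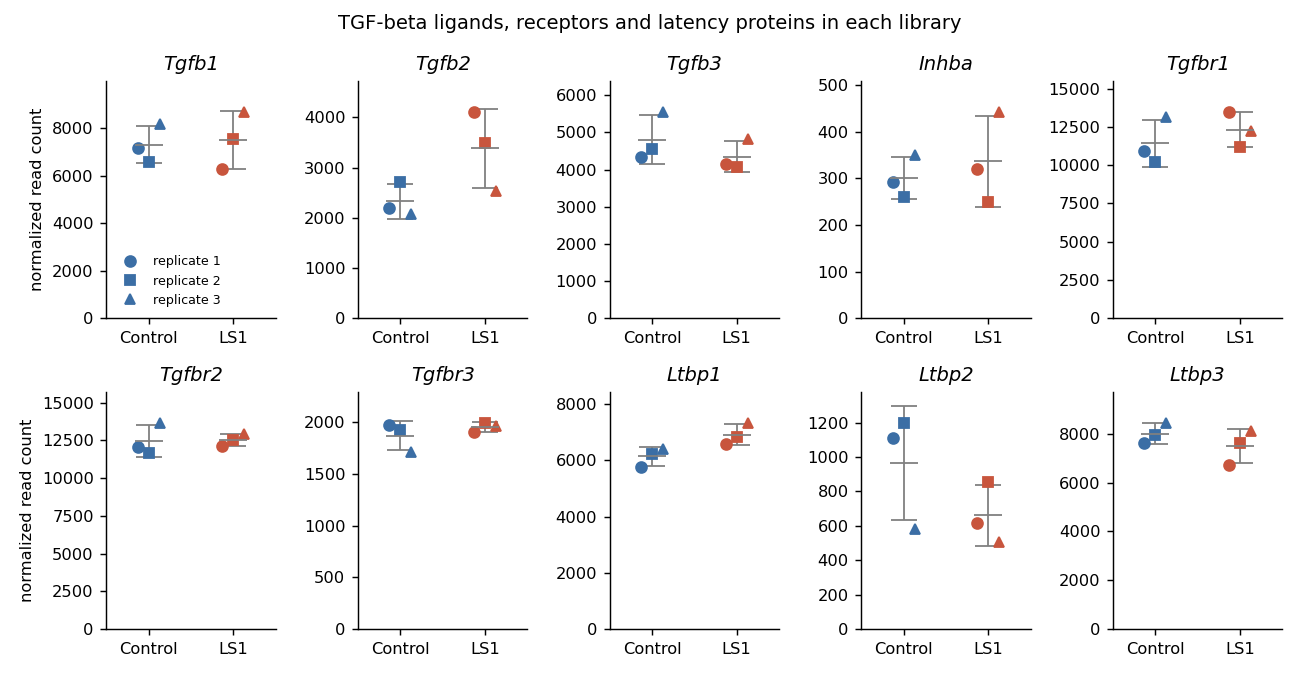
Normalized read count (linear axis from 0) of each ligand, receptor and latency gene in the 3 Control (blue) and 3 LS1 (red) libraries, with marker shapes for replicates 1, 2 and 3 and gray lines for the mean and 1 SD to either side. The LS1 points lie above all Control points only for *Ltbp1*, and *Tgfb2* overlaps only through LS1 replicate 3 and Control replicate 2.

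Levels can be compared between genes only per length, and the following are Control means of the normalized read count per kb of exon, with the SD over 3 libraries. *Tgfbr1* stood highest at 1747 ± 233, followed by *Tgfbr2* at 1523 ± 131, *Tgfb1* at 1451 ± 156 and *Tgfb3* at 1421 ± 193. Neighbours among these 4 overlapped in their library values. Below them came *Ltbp3* at 883 ± 46.7, *Ltbp1* at 575 ± 31.4, *Tgfb2* at 402 ± 59.5, *Tgfbr3* at 286 ± 21.1, *Ltbp2* at 118 ± 40.7 and *Inhba* at 47.0 ± 7.13, with no overlap between neighbours. In LS1 the order of the means was the same, but *Tgfbr1* (1884 ± 173) lay above *Tgfbr2* (1529 ± 49.2) without overlap, whereas *Ltbp1* (647 ± 36.1) and *Tgfb2* (584 ± 136) overlapped, as did *Ltbp2* (80.7 ± 22.0) and *Inhba* (52.7 ± 15.3). The first 5 places of the order depended on the length used. Divided by the longest annotated transcript (2573 bases) in place of the union of exons (5042 bases), *Tgfb1* came first with 2844 ± 307 in Control, above *Tgfbr1* at 1983 ± 265. By the longest transcript *Ltbp3* stood at 1398 ± 73.9 in Control and overlapped *Tgfb3* at 1421 ± 193. In LS1 the *Ltbp3* mean of 1309 then lay above the 1286 of *Tgfb3*, with overlap.

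*Tgfb2* (chr1:186622792-186705989, minus strand, GRCm38) encodes TGF-β2, the ligand that needs betaglycan to bind the type II receptor well. Its normalized read counts were 2187, 2718 and 2073 in Control replicates 1 to 3 and 4107, 3495 and 2541 in LS1. LS1 replicates 1 and 2 lay above every Control library, whereas LS1 replicate 3 lay below Control replicate 2. The group means were 2326 ± 344 and 3381 ± 789 (SD, n = 3 each). The limma log2 fold change was 0.52 (SE 0.19, 95% interval 0.10 to 0.94), with an unadjusted p of 0.0187 and an adjusted p of 0.301. Without LS1 replicate 3 the log2 fold change was 0.71 and the limma adjusted p 0.0655, in a fit that called 1.68% of all genes. Without Control replicate 1, Control replicate 3, LS1 replicate 1 or LS1 replicate 2 the unadjusted limma p was no longer under 0.05, at 0.0592, 0.0688, 0.0635 and 0.0569. Over the 16 alternatives the fold change kept its sign, from 0.37 to 0.71, and the adjusted p ran from 0.0655 to 0.580.

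The articular and perichondrial cartilage markers were a list of 8 genes, of which 7 had a positive log2 fold change. Their summed normalized read count was 16318, 16818 and 16516 in Control and 24736, 22712 and 16846 in LS1, so the sum of LS1 replicate 3 sat near Control, as its *Tgfb2* value did. *Prg4*, the lubricin gene of the joint surface, had 3229, 3472 and 2755 in Control and 8247, 5750 and 3073 in LS1, although its exons overlap those of the more highly counted *Tpr* on the opposite strand. *Thbs4*, a matrix gene, had 3661, 4745 and 2249 in LS1, likewise lowest in replicate 3. The list was not uniform, since *Gdf5*, a joint growth factor gene, had 159, 161 and 214 in LS1 and *Vit* had 2601, 2275 and 2639, both highest in replicate 3, and *Clu* had a log2 fold change of -0.0015. A low LS1 replicate 3 was not limited to articular markers. The 14 chondrocyte markers summed to 3399600, 3859100 and 3338100 in LS1, lowest in replicate 3 though above every Control sum. Among them *Sox9* had 7818, 8501 and 4668 in LS1, whereas *Matn1* had 22919, 27345 and 27992, highest in replicate 3. The part of articular or other cartilage in the *Tgfb2* values was not tested. The genes whose profile over the 6 libraries lay nearest to that of *Tgfb2*, by the root mean square difference of centred log2 values, were *F13a1* at 0.0588, *Chst11* at 0.0657 and *Xylt1* at 0.0669, where the median over all genes was 0.442. *F13a1* encodes the A subunit of coagulation factor XIII, and *Chst11* and *Xylt1* encode enzymes that build chondroitin sulfate chains. This is a description of 6 libraries that differ in line and depth.

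The starts of *Tgfb2* and *Tgfb1* are shown side by side because, among the 4 ligand genes, *Tgfb2* had the largest and *Tgfb1* the smallest log2 fold change in size. Each window runs from 250 bases before to 50 bases after the start that RefSeq gives on GRCm38.p6, read 5′ to 3′ on the gene's own strand, and RefSeq windows were found for 8 of the 10 genes. Capitals mark CAGAC, the core of a Smad binding element, and GGGCGG, the GC box, each on either strand, and TATAAA, the TATA box, on the gene's strand only. The *Tgfb2* window is chr1:186705940-186706239 on the minus strand and the *Tgfb1* window is chr7:25686752-25687051 on the plus strand.
Tgfb2: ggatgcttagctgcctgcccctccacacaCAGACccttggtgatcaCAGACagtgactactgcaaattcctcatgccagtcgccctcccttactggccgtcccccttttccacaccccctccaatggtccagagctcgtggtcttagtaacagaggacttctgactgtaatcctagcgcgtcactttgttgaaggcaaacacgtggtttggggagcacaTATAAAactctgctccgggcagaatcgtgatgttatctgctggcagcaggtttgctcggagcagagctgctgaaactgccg
Tgfb1: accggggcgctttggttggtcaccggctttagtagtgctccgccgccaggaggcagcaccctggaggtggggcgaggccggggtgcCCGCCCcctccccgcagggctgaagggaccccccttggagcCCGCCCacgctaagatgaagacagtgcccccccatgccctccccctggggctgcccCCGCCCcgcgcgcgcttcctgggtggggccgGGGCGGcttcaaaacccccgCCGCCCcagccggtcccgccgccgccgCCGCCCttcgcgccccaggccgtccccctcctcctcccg

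The *Tgfb2* window held 2 CAGAC matches, 1 TATA box and no GC box, with a GC content of 54.3%. That of *Tgfb1* held 6 GC boxes and neither of the other motifs, with a GC content of 77%. Over all 32851 RefSeq windows of this length the median GC content was 52.7%, and 49.59% held CAGAC, 35.66% GGGCGG and 8.32% TATAAA. A match to these letters is a description of the sequence and not an occupied site.

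*Tgfb1* (chr7:25687002-25705077, plus strand) encodes TGF-β1, the main ligand stored in bone matrix. Its normalized read counts were 7181, 6604 and 8164 in Control and 6279, 7571 and 8691 in LS1, so the lowest and the highest of all 6 libraries were both LS1. Its log2 fold change in limma was 0.03 (SE 0.15, 95% interval -0.30 to 0.36, adjusted p 0.951), and it turned to -0.08 without LS1 replicate 3 and to -0.04 without Control replicate 2. Both groups had their highest value in replicate 3 and the order of the libraries was not that of the lines. The 8 osteoclast markers summed to 450770, 476580 and 570960 in Control and 388400, 498290 and 615310 in LS1, likewise with the lowest and the highest sums in LS1, and 5 of the 8 had a positive log2 fold change. The part of osteoclasts in the *Tgfb1* values was not tested.

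For *Tgfb3* (chr12:86056745-86079041, minus strand), which encodes TGF-β3, the values were 4326, 4545 and 5549 in Control and 4157, 4076 and 4819.5 in LS1. LS1 replicates 1 and 2 lay below every Control library, and LS1 replicate 3 lay above 2 of them. The limma log2 fold change was -0.14 (SE 0.14, 95% interval -0.45 to 0.18, adjusted p 0.711). Without LS1 replicate 3 it was -0.22 (limma adjusted p 0.526). *Tgfb3* overlaps *Ttll5*, a gene on the opposite strand with a mean of 1773 reads, though their exons do not overlap. Whether counting used the strand is not given in the sources used here, so unspliced *Ttll5* reads within *Tgfb3* exons could not be separated.

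*Inhba* (chr13:16011851-16031621, plus strand) encodes the βA subunit of activin A and of inhibin A. It was the lowest of the 10 in normalized read count, with 293, 259 and 349.5 in Control and 319, 249 and 442 in LS1. Both the lowest value (replicate 2) and the highest (replicate 3) were in LS1. The limma log2 fold change was 0.13 (SE 0.26, 95% interval -0.43 to 0.70, adjusted p 0.861). It became -0.08 without LS1 replicate 3 and 0.33 without LS1 replicate 2. The coefficient of variation was 15.2% in Control and 29.1% in LS1.

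The receptor genes had log2 fold changes between 0.01 and 0.11. *Tgfbr1* (chr4:47353222-47414931, plus strand), the type I receptor kinase, had values of 10904, 10211 and 13130 in Control and 13471, 11208 and 12242 in LS1. The groups overlapped, with the lowest value in Control replicate 2 and the highest in LS1 replicate 1, and the limma log2 fold change was 0.11 (SE 0.14, 95% interval -0.19 to 0.42, adjusted p 0.767). *Tgfbr2* (chr9:116084293-116175360, minus strand), the ligand-binding type II receptor, had 12081, 11643 and 13680 in Control and 12124, 12502 and 12930 in LS1. All LS1 values lay within the range of Control. Its log2 fold change was 0.01 (SE 0.12, 95% interval -0.26 to 0.28, limma adjusted p 0.985), and its sign turned under several alternatives. The intervals limit the difference of either kinase gene to under 0.42 on the log2 scale upward. *Tgfbr3* (chr5:107106570-107289629, minus strand) encodes betaglycan, the coreceptor that presents TGF-β2. Its values were 1975, 1928 and 1716 in Control and 1910.2, 1998 and 1962 in LS1, with Control replicate 3 alone on the low side. For betaglycan the limma log2 fold change was 0.07 (SE 0.14, 95% interval -0.24 to 0.38, adjusted p 0.879). In LS1 its coefficient of variation was 2.26%, the smallest of the 10, and that of *Tgfbr2* was 3.22%.

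No difference beyond the spread was seen in the balance of the receptor kinases. The log2 ratio of *Tgfbr2* to *Tgfbr1* per kb of exon was -0.18, -0.14 and -0.27 in Control and -0.48, -0.17 and -0.25 in LS1. The means were -0.19 ± 0.07 and -0.30 ± 0.16 (SD, n = 3 each), and the two-sided exact permutation test gave p = 0.5. LS1 replicate 1, where *Tgfbr1* was highest, had the lowest ratio and the other LS1 libraries lay within the Control range.

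*Ltbp1* (chr17:75005568-75392512, plus strand) encodes the latent TGF-β binding protein that anchors the latent complex to fibronectin and fibrillin. It was the gene of the set whose LS1 libraries all lay above Control, with 5771, 6233 and 6425 in Control and 6589.6, 6831 and 7345 in LS1. Over all genes tested, 19.2% had groups that did not overlap and 10.3% had every LS1 library above Control, so 1 of 10 is near the share of the whole table. The group means were 6143 ± 336 and 6922 ± 386, and the limma log2 fold change was 0.17 (SE 0.12, 95% interval -0.10 to 0.44, p 0.187, adjusted p 0.578). It stayed positive under all 16 alternatives, from 0.11 to 0.21. Platelets and their precursors are a known store of latent TGF-β. The 10 megakaryocyte and platelet markers all had negative log2 fold changes, with sums of 42622, 33375 and 25334 in Control and 16627, 24053 and 30612 in LS1. In Control the library with the highest of these sums had the lowest *Ltbp1* value, while in LS1 the highest of both was in replicate 3. The part of these cells in the *Ltbp1* values was not tested.

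*Ltbp2* (chr12:84783212-84876532, minus strand) encodes the LTBP that binds fibrillin but no TGF-β. It had 1109.9, 1201 and 584 in Control and 617, 858 and 506 in LS1. Control replicates 1 and 2 lay above every LS1 library, and Control replicate 3 lay among the LS1 values. Its coefficients of variation, 34.5% in Control and 27.3% in LS1, went with a wide interval: the limma log2 fold change was -0.51 (SE 0.29, 95% interval -1.15 to 0.13, p 0.106, adjusted p 0.486). Without Control replicate 3 it was -0.84, without Control replicate 2 it was -0.32 and without LS1 replicate 3 it was -0.34, so that any of these libraries moved it by more than 1.5 times. The unadjusted limma p was 0.00718 without Control replicate 3 and 0.0435 without LS1 replicate 2. The adjusted p over the 16 alternatives ran from 0.209 to 0.801.

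The start of *Ltbp2* is shown as that of the gene with the lowest log2 fold change of the 10. Its window is chr12:84876442-84876741 on the minus strand, with the same motifs in capitals.
Ltbp2: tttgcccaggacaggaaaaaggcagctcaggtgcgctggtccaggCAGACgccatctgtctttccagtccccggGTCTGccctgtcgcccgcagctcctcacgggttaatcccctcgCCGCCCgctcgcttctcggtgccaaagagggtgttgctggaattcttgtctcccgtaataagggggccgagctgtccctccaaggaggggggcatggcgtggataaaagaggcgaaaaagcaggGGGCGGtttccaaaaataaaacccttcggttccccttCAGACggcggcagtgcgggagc

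It held 3 CAGAC matches, 2 GC boxes and no TATA box by these letters, with a GC content of 61.0%.

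*Ltbp3* (chr19:5740904-5758532, plus strand) encodes the LTBP that is needed for normal bone and tooth growth. Its values were 7618, 7949.9 and 8458 in Control and 6723, 7644 and 8124 in LS1, and both LS1 replicates 2 and 3 lay within the Control range. The limma log2 fold change was -0.10 (SE 0.13, 95% interval -0.38 to 0.18, adjusted p 0.780).

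**Figure D2:**
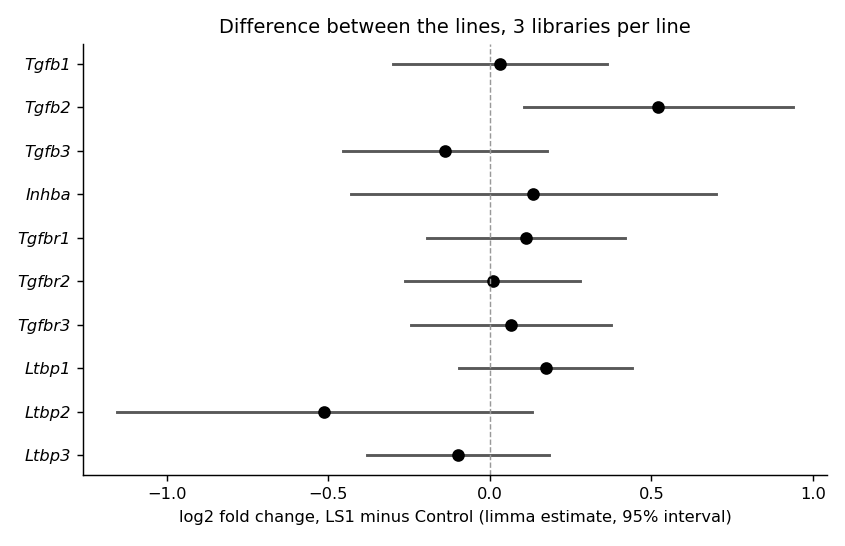
The limma log2 fold change (LS1 minus Control, points) of the 10 genes with its 95% interval (bars), from 3 libraries per line. Only the interval of *Tgfb2* (0.10 to 0.94) leaves out 0, before adjustment for the number of genes tested.

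Within a library, the makeup of the ligand and LTBP transcripts does not depend on the scaling between libraries. In percent of the summed *Tgfb1*, *Tgfb2* and *Tgfb3* values per kb, *Tgfb3* took 41.5, 43.0 and 45.3% in Control and 38.6, 36.4 and 39.7% in LS1. All LS1 libraries lay below all Control libraries, with means of 43.3 ± 1.93% and 38.2 ± 1.69% (n = 3 each), and the two-sided exact permutation test gave p = 0.1, the smallest that 3 against 3 libraries allow. *Tgfb2* took 12.3, 15.03 and 9.89% in Control and 22.3, 18.2 and 12.2% in LS1, with means of 12.4 ± 2.57% and 17.6 ± 5.06% and an exact p of 0.3. The *Tgfb1* share was 44.3 ± 2.18% and 44.2 ± 4.58% (exact permutation p = 1). These shares sum to 100% in each library, so a higher share of one gene lowers the others.

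Among the LTBP genes, with *Ltbp4* as the remaining one, *Ltbp1* took 32.8, 33.7 and 35.0% in Control and 40.8, 37.6 and 38.1% in LS1. Every LS1 library lay above every Control library, the means were 33.8 ± 1.11% and 38.8 ± 1.74%, and the exact permutation p was 0.1. *Ltbp3* had lower shares in every LS1 library, 49.4 ± 0.309% against 52.0 ± 2.01% in Control, also with an exact p of 0.1. The *Ltbp2* share was 6.96 ± 2.43% and 4.86 ± 1.37% (exact p = 0.3), and that of *Ltbp4*, which binds TGF-β1 weakly and organizes elastic fibres, was 7.16 ± 0.699% and 6.88 ± 1.85% (exact p = 0.9). Of the 8 shares and ratios tested in this way, the smallest Benjamini-Hochberg adjusted p was 0.267. The LTBP shares too have a fixed sum in each library, so the higher *Ltbp1* and lower *Ltbp3* shares are not separate results. The shares of *Tgfb3*, *Ltbp1* and *Ltbp3* lay on the same side without overlap when the longest transcript was used for the length. Their means were then 30.0 and 26.4%, 35.3 and 40.2%, and 53.6 and 50.6% in Control and LS1. A gene's length is the same in every library, so this alternative is a weak check on the order of the libraries.

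**Figure D3:**
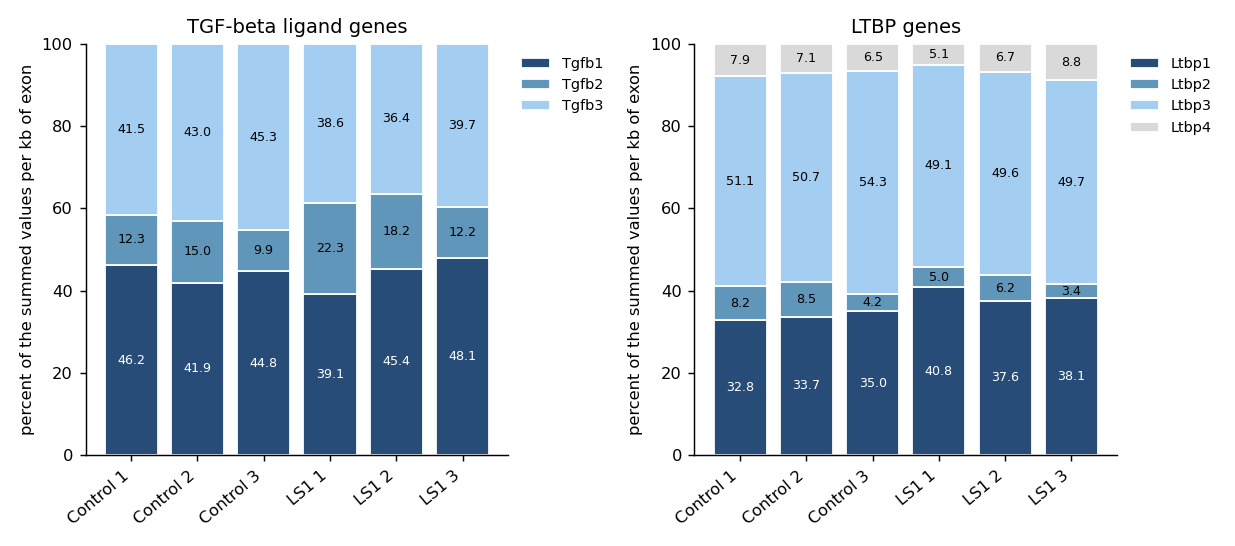
Percent of the summed normalized read counts per kb of exon taken by each TGF-β ligand gene (left) and each LTBP gene (right) in each library, with every bar summing to 100. The *Tgfb3* shares are lower and the *Ltbp1* shares higher in all 3 LS1 libraries than in the 3 Control libraries.

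Control replicate 3 had the highest Control value of 7 of the 10 genes and the lowest of *Tgfb2*, *Tgfbr3* and *Ltbp2*. LS1 replicate 3 had the highest LS1 value of 6 genes, *Tgfb1*, *Tgfb3*, *Inhba*, *Tgfbr2*, *Ltbp1* and *Ltbp3*, and the lowest of *Tgfb2* and *Ltbp2*. Thus *Tgfb2* and *Ltbp2* ran against most of the set within each group, while between the groups they had log2 fold changes of opposite sign. The nearest profiles over the 6 libraries, as root mean square differences of centred log2 values, were those of *Kat14* for *Ltbp3* (0.0144), *Wdr48* for *Ltbp1* (0.0180), *Ctsb* for *Tgfbr2* (0.0209), *Rfng* for *Tgfb3* (0.0258), *Psma4* for *Tgfbr1* (0.0286), *Ndufs1* for *Tgfbr3* (0.0296) and *Pak4* for *Tgfb1* (0.0309). Each is the smallest value in a search over all genes, where the medians ran from 0.261 for *Tgfbr2* to 0.298 for *Tgfb1*. *Inhba* and *Ltbp2*, the genes with the fewest reads, lay nearest to the predicted genes *Gm4468* (0.0365, median 0.375) and *Gm28192* (0.101, median 0.545). These predicted genes had means of only 38.7 and 105 reads, so counting error weighs on both matches.

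The other genes of the pathway were counted in lists by role, 89 genes of which 83 passed the filter on reads. After adjustment limma called 0 of these 83, and 12 had an unadjusted p under 0.05, 10 with a positive and 2 with a negative log2 fold change. As a share of the 83 this is near the 12.9% of all genes. Their median log2 fold change was 0.10, with 55 positive and 28 negative, against 0.0054 over all genes tested.

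Among other ligands and antagonists, 8 of 13 were tested and 6 had a positive log2 fold change. *Mstn*, which encodes myostatin, a brake on muscle growth, had 11.1, 16.6 and 18.8 normalized reads in Control and 59.0, 43.5 and 99.8 in LS1. Every LS1 library lay above Control at a low level, and the limma log2 fold change was 1.998 (SE 0.44, p 0.000791, adjusted p 0.162). DESeq2 gave 2.11 with an adjusted p of 0.0107, the lowest of the alternatives that tested *Mstn*, whose highest was 0.370. With a filter of a mean of at least 1 CPM the gene was not tested. Summed skeletal muscle markers were 8564 to 21705 in Control and 4603 to 13137 in LS1, and all 7 tested had a negative log2 fold change. *Fst*, which encodes the activin antagonist follistatin, had 727, 635 and 685 in Control and 895, 1094 and 894 in LS1 (limma log2 fold change 0.49, SE 0.18, p 0.0178, adjusted p 0.299). *Fstl3*, another follistatin, had a log2 fold change of 0.89 with overlapping groups and lies opposite exons of *Prss57*, a gene with more reads, and that of the nodal antagonist *Lefty1* (1.24) came from 121 normalized reads in LS1 replicate 3.

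Of 10 other receptors and coreceptors, 7 had a positive and 3 a negative log2 fold change, and 0 had an unadjusted limma p under 0.05. *Cd109*, a coreceptor that lowers TGF-β signaling, and *Bambi*, a decoy receptor without a kinase, had log2 fold changes of 0.29 (p 0.0542) and 0.28 (p 0.0578) in limma. They were the 2 of these 10 genes with every LS1 library above Control, as 10.3% of all genes tested had. The activin and BMP type I receptor *Acvr1* and the activin type II receptor *Acvr2a* had log2 fold changes of 0.21 and 0.23 with overlapping groups, and exons of *Acvr2a* overlap those of *Orc4* on the opposite strand.

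In the list for latency, matrix anchoring and activation, 18 of 19 genes were tested, with 11 positive and 7 negative log2 fold changes. *Fbn1*, the gene of fibrillin-1, the microfibril protein that LTBPs bind, had 8851, 8336 and 9771 in Control and 6253, 5972 and 5391 in LS1. All LS1 libraries lay below Control, the limma log2 fold change was -0.61 (SE 0.13, p 0.000543, adjusted p 0.142), and DESeq2 gave -0.62 with an adjusted p of 0.00503, where the alternatives ran up to 0.370. *Itgb8*, an integrin subunit that releases TGF-β from its latent form, had 251, 133 and 142 in Control and 359.9, 251.5 and 307 in LS1 (log2 fold change 0.85, limma p 0.0138, adjusted p 0.285). *Thbs1*, the gene of thrombospondin-1, an activator of latent TGF-β, had a log2 fold change of 0.45 (limma p 0.0312, adjusted p 0.337) with overlapping groups, and the integrin subunit *Itgb1* had 0.25 (p 0.0773).

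Of 17 intracellular mediators and inhibitors, 10 had a positive and 7 a negative log2 fold change, with a median of 0.01 and 0 at an unadjusted limma p under 0.05. *Smad4*, the common partner of receptor-activated SMADs, had 0.27 (p 0.0702), *Zfyve9*, which brings SMAD2 and SMAD3 to the receptor, had 0.27 (p 0.0725), the ubiquitin ligase *Wwp1* had 0.22 and *Tab1*, an activator of the kinase TAK1, had -0.32.

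The 20 target genes had 12 positive and 8 negative log2 fold changes and a median of 0.07. *Pthlh*, the gene of parathyroid hormone-related protein, which keeps chondrocytes from hypertrophy, had 54.5, 64.3 and 58.6 normalized reads in Control and 122, 88.8 and 94.2 in LS1, a log2 fold change of 0.76 (limma p 0.0248, adjusted p 0.317). The matrix genes *Tgfbi* and *Ccn2* had 0.40 (p 0.0306) and 0.30 (p 0.0339), and the elastin gene *Eln* had -0.55 (p 0.0489), none past the limma adjusted threshold. In the BMP branch 9 of 10 genes had a positive log2 fold change, with a median of 0.27. *Id2*, a BMP target, had 0.40 (p 0.0130), the BMP receptors *Bmpr1a* and *Bmpr2* had 0.44 (p 0.0232) and 0.41 (p 0.0402), and *Smad5* had 0.23 (p 0.113), with limma adjusted p of 0.282 or more. Every LS1 library lay above Control for 5 of the 10 genes in this list, these 4 included, against 10.3% of all genes tested, and the 4 were named for their small p.

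**Figure D4:**
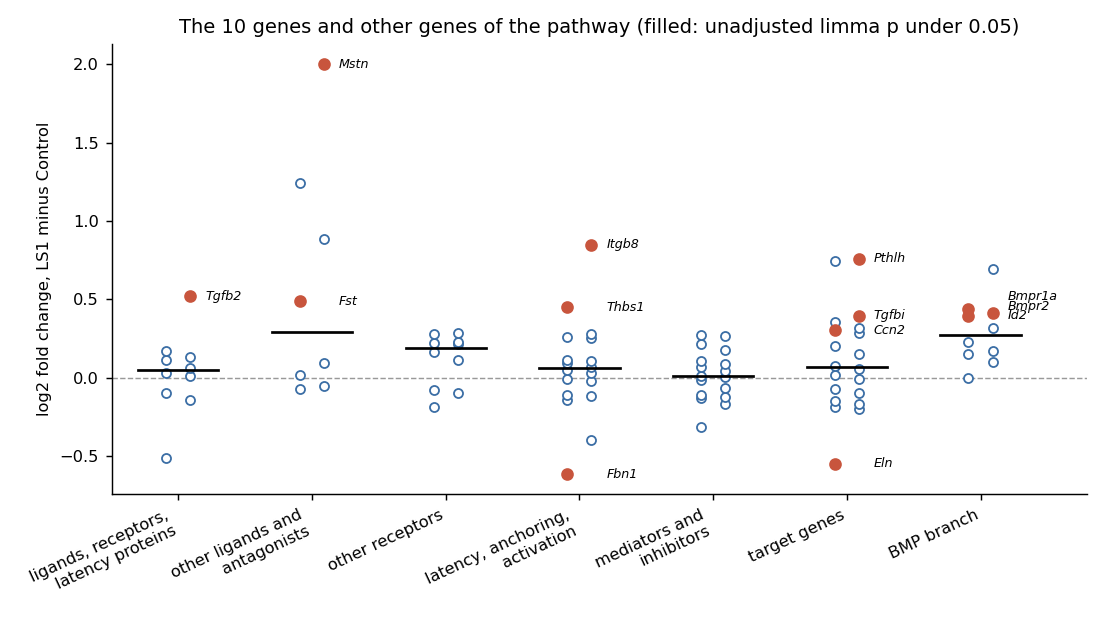
The limma log2 fold change (LS1 minus Control) of the 10 genes and of the tested genes in each list of the pathway, with filled and named points for an unadjusted p under 0.05 and black lines for the list medians. *Mstn* at 1.998 and *Fbn1* at -0.61 are the extremes, and the median of the 10 genes is 0.05.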

How the data were processed

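Per the labels and the methods, polyadenylated RNA of each mouse was sequenced as short paired-end reads, and the authors aligned them to GRCm38 with HISAT2 2.0.2, assigned them to genes (Ensembl release 84) with featureCounts 1.4.6 and ran DESeq2. The deposited values are a signal: for each of 47729 genes and 6 libraries, the reads over the library's size factor, as scaled by the authors. All columns were used (0 unused). Reads were recovered by dividing by the value of 1 read, and 100% came out whole (tolerance 0.01). For Control replicate 1 that value (1.01) was too near 1 to tell recovered reads from rounded values, so edgeR was also run on the other 5 libraries, an alternative chosen after seeing the data.

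A gene entered the test if its recovered reads averaged 20 or more, with limma 3.58.1 in R 4.3.3 (trend and robust moderation, log2 of the value with a pseudocount of 1, no covariate), adjusted by Benjamini-Hochberg over all of them. Fold changes are on that scale. Shares and ratios were tested with the two-sided exact permutation test (scipy 1.17.1). edgeR 4.0.16 and DESeq2 1.42.0 ran as alternatives, and the scripts were tested on simulated data. The 10 genes and the lists were chosen with earlier results of these data known. Named besides the 10 genes are up to 4 genes with the smallest limma p of each pathway list, *Ltbp4*, and the genes nearest in profile. *Prg4*, a gene of both the target and the articular marker lists, and the articular markers *Thbs4*, *Gdf5*, *Vit* and *Clu* were named after their values were seen. So were the chondrocyte markers *Sox9* and *Matn1*. Symbols and coordinates came from GENCODE M21 (98.94% of identifiers matched), promoter windows from RefSeq. Mice are the replicates, and the precision set by read number covers counting error only. Whether counting used strand is not given in the sources used here, so reads of genes that overlap on opposite strands cannot be separated. Some items are not reported here.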

Additional observations from a re-analysis of the deposited data

How the results depend on the processing

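Of 160 fold changes of the 10 genes under an alternative, 150 kept their sign, 10 reversed and 0 passed an adjusted p under 0.05. The reversals were in *Tgfbr2*, *Tgfb1* and *Inhba*. *Tgfbr2* went from 0.01 to -0.0036 with TMM factors, -0.0069 with edgeR, -0.0037 with DESeq2 and -0.036 with edgeR on 5 libraries. With each library left out in turn it ran from -0.039 to 0.078, *Tgfb1* from -0.08 to 0.15, *Inhba* from -0.082 to 0.33, *Lefty1* from -0.52 to 2.94 and *Ltbp4* from -0.37 to 0.15. The number of the 10 genes at an unadjusted p under 0.05 was 1, against 0 without trend and robust moderation, 2 with DESeq2 (*Tgfb2* and *Ltbp2*), 0 with edgeR on 5 libraries and 0 to 1 with a library left out. Without Control replicate 3 or without LS1 replicate 2 that gene was *Ltbp2* and not *Tgfb2*. Over all genes limma called 14, 2 of them higher in LS1. It called 45 with no filter on low values and 3 without trend and robust moderation. edgeR called 7, edgeR on 5 libraries 5, and DESeq2 456, of which 276 were higher. With a library left out limma called 5 to 324, the highest number without LS1 replicate 3, where 226 were higher, and the next without LS1 replicate 1, where 46 were called. The causes of these differences were not tested. DESeq2 called *Mstn* (log2 fold change 2.11) and *Fbn1* (-0.62), and so 1 gene in each of their lists. Without LS1 replicate 3 limma called 1 target gene, *Prg4*, and over the libraries left out that list had 0 to 1. The median of the other ligands and antagonists was 0.29, against 0.0204 with a mean of at least 1 CPM, where fewer genes were tested, and 0.0234 to 0.39 with a library left out.

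The letters in the sample titles gave a replicate block. Same-lettered libraries correlated at 0.05, 0.02 and 0.22 in their deviations from the group means. Not every library correlated best with its own letter, but the 0.22 of the replicate 3 libraries was the highest of all pairs. So few libraries cannot tell whether those of the same letter share anything more, and the sources used here do not give its meaning. Over all genes tested, 3377 had an unadjusted limma p under 0.05 with the block, against 2499 without it. With the replicate block limma called 12 genes, 0 of the 10 described here, and 2 of these (*Tgfb2* and *Ltbp2*) had an unadjusted p under 0.05. Low read numbers limit *Mstn*, *Lefty1* and *Fstl3*, with means of 43.7, 24.8 and 36.5 reads.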
